A study of Mus musculus with 6 samples.

Results

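The genes described are 10 symbols of a table of 24444: the embryonic globins Hbb-y, Hbb-bh1 and Hba-x, the adult globins Hbb-bt, Hbb-bs, Hba-a1 and Hba-a2, and the erythroid genes Klf1, Gata1 and Alas2. They were chosen by symbol, all 10 were found, and all 10 passed the filter on low values, which was applied to the mean over all libraries. The table comes from poly(A) RNA of the telencephalon (the embryonic source of cortex and striatum) of C57BL/6J mouse embryos at E12.5. Of the 6 libraries, 3 are labelled wild-type and 3 are labelled Arl13b-/-, here called wild-type 1 to 3 and Arl13b-null 1 to 3 after these labels; tissue, age and genotype are as labelled, and the level of the targeted gene is not reported here. The title of the series asks what neuronal cilia do for the growth of axon tracts. The labels name no allele, no Cre driver and no treatment, and do not say whether each library is 1 embryo or a pool, so the spread behind each p-value is that of these libraries and may be technical.

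Haemoglobin is a tetramer of alpha-type and beta-type chains around haem. The first red cells of the mouse embryo arise in the yolk sac, circulate as large nucleated primitive erythroblasts and carry mainly the embryonic chains, which are the epsilon-y chain of Hbb-y, the beta-h1 chain of Hbb-bh1 and the zeta chain of Hba-x. Definitive red cells from the fetal liver enter the blood later and carry the adult chains. Neural cells make few of these transcripts, which in a dissected tissue come mainly from the blood within it. In a bulk sample, fewer red cells and less globin RNA per red cell cannot be told apart.

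Both globin loci are laid out as families of neighbouring genes. In RefSeq the alpha-type genes lie on chromosome 11 in the order Hba-x, Hba-a1, Hba-a2, and the beta-type genes on chromosome 7 with Hbb-y and Hbb-bh1 at one end and Hbb-bs and Hbb-bt at the other. The 150 bases before the start of 5 globins are shown because embryonic and adult members went separate ways in the data and are read from these promoters. RefSeq's promoter table (build GRCm38.p6) held 9 of the 10 genes, and had no entry for Hbb-bh1. Each is written 5′ to 3′ on the gene's strand, and capitals mark 4 short motifs on either strand, which are CACCC (bound by Klf1-type zinc-finger factors), the promoter box CCAAT (bound by NF-Y), the Gata factor motif GATAA and the nuclear receptor motif GGTCA, and also the TATA-box motif ATANAA on the gene's strand, 15 to 40 bases before the start. Hbb-y is at chr7:103853208-103853357 (minus strand), Hba-x at chr11:32276450-32276599 (plus), Hbb-bs at chr7:103827929-103828078 (minus), Hbb-bt at chr7:103813924-103814073 (minus) and Hba-a1 at chr11:32283522-32283671 (plus).
Hbb-y: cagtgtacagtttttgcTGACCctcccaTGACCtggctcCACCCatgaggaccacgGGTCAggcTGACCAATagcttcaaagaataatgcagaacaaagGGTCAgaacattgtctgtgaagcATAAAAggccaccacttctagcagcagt
Hba-x: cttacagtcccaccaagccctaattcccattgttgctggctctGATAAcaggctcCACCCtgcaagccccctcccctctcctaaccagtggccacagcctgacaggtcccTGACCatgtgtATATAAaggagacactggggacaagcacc
Hbb-bs: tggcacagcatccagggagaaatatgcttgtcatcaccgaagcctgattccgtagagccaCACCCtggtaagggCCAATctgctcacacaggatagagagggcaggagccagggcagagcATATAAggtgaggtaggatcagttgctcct
Hbb-bt: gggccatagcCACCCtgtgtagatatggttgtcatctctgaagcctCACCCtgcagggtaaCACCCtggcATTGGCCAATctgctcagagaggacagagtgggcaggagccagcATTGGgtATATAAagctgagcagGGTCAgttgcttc
Hba-a1: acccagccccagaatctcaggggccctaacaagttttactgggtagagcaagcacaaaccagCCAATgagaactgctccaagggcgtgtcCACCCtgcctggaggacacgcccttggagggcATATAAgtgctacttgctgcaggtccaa

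All 5 share the TATA-box motif, which 3.31% of 32817 RefSeq promoter windows hold in that place, and at least 1 CACCC within the 250 bases searched, which 52.0% of windows hold. Hbb-y stood apart by 5 GGTCA matches, 1 of which overlaps its CCAAT by 2 bases. At least 1 GGTCA was found in 35.2% of all windows and at least 5 in 0.0427%. Hba-x and Hbb-bt had 1 GGTCA match each, and Hbb-bs and Hba-a1 had none in this window. GATAA was found once in each of the 5 globins within 250 bases, and in 22.6% of all windows, and CCAAT in each but Hba-x, against 33.8% of windows. These matches describe letters and not binding.

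The adult genes come in near-identical copies, so the division of reads between them is uncertain. The promoter windows of Hba-a1 and Hba-a2 are the same sequence shifted by 3 bases. In the GENCODE M21 transcripts, 477 of the 524 stretches of 31 bases in Hba-a2 also occur in Hba-a1, and 400 of the 598 in Hbb-bs also occur in Hbb-bt. The embryonic transcripts shared no such stretch with any other of the 7 globins. Hba-a2 was between 0.969 and 1.08 times Hba-a1 in the 6 libraries. The table also lists Hbb-b1 and Hbb-b2, the names of the beta genes of another mouse haplotype than that of C57BL/6J. Hbb-b1 lay between 0.869 and 1.13 times Hbb-bs in the 6 libraries, and Hbb-b2 between 0.969 and 1.03 times Hbb-bt in the 5 libraries where Hbb-bt was above 0. The values of Hbb-bs and Hbb-bt below may therefore each hold a part of the reads of 1 gene, and the ratios of adult genes below are also given with Hbb-b1 and Hbb-b2 added, in the text or, for the adult to embryonic ratio, among the effects of the processing.

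Normalized counts, given below for replicates 1, 2 and 3 of a group in that order where 3 values stand together, were obtained by undoing the variance stabilisation of the deposited table. Estimated depth was between 27500000 and 51800000 reads per library, and 1 read was worth between 0.535 and 1.31 normalized counts. Wild-type 1 and Arl13b-null 2 stood apart from the other 4 libraries over all genes, with Pearson correlations across genes, which are not independent replicates, of at most 0.898 with any of these 4, against at least 0.985 among wild-type 2 and 3 and Arl13b-null 1 and 3. Wild-type 1 and Arl13b-null 2 also had the lowest cell cycle sums and the highest neuron sums (given with the marker lists below), and whether tissue and age are as labelled in them was not tested, which bears on every ratio of adult to embryonic globins given for them. The other 4 libraries are named the 4 similar libraries, a choice known from earlier results. No 2 libraries agreed within sampling noise.

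Embryonic globins were abundant in the 4 similar libraries, sparse in wild-type 1 and undetected in Arl13b-null 2. Hbb-y, the epsilon-y chain, had 397 normalized counts in wild-type 1, 33298 in wild-type 2, 44054 in wild-type 3, 61914 in Arl13b-null 1, 0 in Arl13b-null 2 and 160378 in Arl13b-null 3. Hba-x, the zeta chain, stood at 380, 17445 and 21803 normalized counts in wild-type and at 31616, 0 and 98398 in Arl13b-null. Hbb-bh1, the beta-h1 chain, stood at 10.2, 2489 and 2878 normalized counts in wild-type and at 3977, 0 and 13346 in Arl13b-null. The wild-type and Arl13b-null groups overlapped for all 3, because each group held 1 library far under the rest. Arl13b-null 2 was the lowest library for all 10 genes, as for 42.7% of all genes tested, and wild-type 1 lay under the 4 similar libraries for 5 of the 10 (the embryonic globins, Klf1 and Gata1), as for 46.7%, and above them for Hbb-bs and Hbb-bt, as for 40%. A count of 0 in Arl13b-null 2 allows up to 3 reads, or 3.94 normalized counts. Against the average of wild-type 2 and wild-type 3, Hbb-y was at 0.0103 times in wild-type 1, Hba-x at 0.0193 times and Hbb-bh1 at 0.00381 times, whereas Arl13b-null 3 was at 4.15, 5.01 and 4.97 times.

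**Figure D1:**
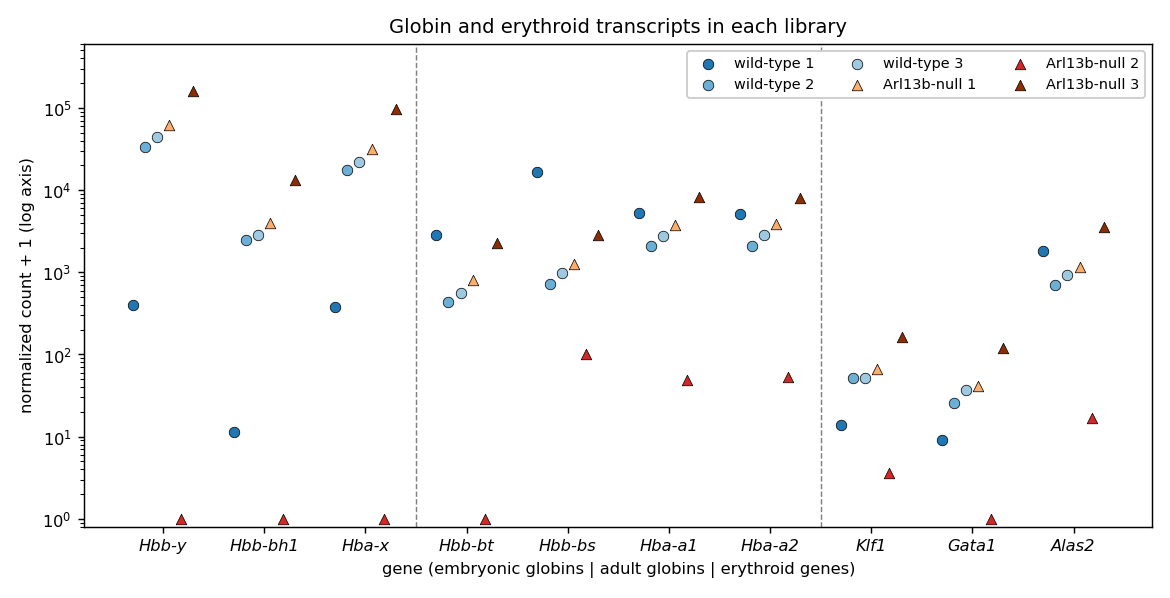
Normalized count plus 1 on a log axis for each of the 10 genes, with 1 point per library (circles wild-type, triangles Arl13b-null), and no mean or error because single libraries are shown. Arl13b-null 2 is the lowest library for every gene, and wild-type 1 is far under the 4 similar libraries for the embryonic globins but above all other libraries for Hbb-bs.

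The 3 embryonic globins kept nearly fixed proportions among the 4 similar libraries. Hbb-y was between 1.63 and 2.02 times Hba-x and between 12.0 and 15.6 times Hbb-bh1, while the level of Hbb-y itself ranged from 33298 to 160378 normalized counts. In wild-type 1, Hbb-y was 1.05 times Hba-x and 38.8 times Hbb-bh1, the latter over 19.1 estimated reads of Hbb-bh1. Per kilobase of transcript, the order in each of the 4 similar libraries was Hbb-y, Hba-x and then Hbb-bh1 or an adult alpha gene. In wild-type 2 the levels were 52603 normalized counts per kilobase for Hbb-y, 21779 for Hba-x, 4061 for Hbb-bh1 and 3757 for Hba-a2. In Arl13b-null 3 they were 253361, 122844, 21772 and 14655.

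Adult globins were present in all 6 libraries and took a different order. Hbb-bs, an adult beta chain, stood at 16706, 725 and 978 normalized counts in wild-type and at 1267, 101 and 2867 in Arl13b-null. Wild-type 1 was thus the highest library by a wide margin, at 5.83 times Arl13b-null 3. Hbb-bt, the other adult beta chain, stood at 2836, 432 and 566 normalized counts in wild-type and at 795, 0 and 2266 in Arl13b-null, and wild-type 1 was again the highest. Hba-a1, an adult alpha chain, stood at 5241, 2110 and 2773 normalized counts in wild-type and at 3730, 47.8 and 8189 in Arl13b-null. Hba-a2 stood at 5080, 2082 and 2830 normalized counts in wild-type and at 3843, 51.8 and 8119 in Arl13b-null. For the alpha genes wild-type 1 was second to Arl13b-null 3, so the excess of adult transcripts in wild-type 1 lay mostly in the beta genes. Against the average of wild-type 2 and wild-type 3, wild-type 1 was at 19.6 times for Hbb-bs and 5.68 times for Hbb-bt, against 2.15 times for Hba-a1 and 2.07 times for Hba-a2.

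The balance of the adult beta genes also differed between libraries. Hbb-bs was 5.89 times Hbb-bt in wild-type 1, 1.68 and 1.73 times in wild-type 2 and 3, 1.59 times in Arl13b-null 1 and 1.27 times in Arl13b-null 3. With Hbb-b1 added to Hbb-bs and Hbb-b2 to Hbb-bt, the ratio was 5.89 in wild-type 1 and between 1.27 and 1.77 in the 4 similar libraries, so the split of reads between haplotype names did not alter it. In Arl13b-null 2, Hbb-bs had 76.6 estimated reads and Hbb-bt none.

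The adult to embryonic ratio, the summed counts of the 4 adult globins over those of the 3 embryonic globins, separated the libraries into a high and a low set that crossed the genotype labels. It was 37.9 in wild-type 1, 0.10 in wild-type 2, 0.104 in wild-type 3, 0.0988 in Arl13b-null 1 and 0.0788 in Arl13b-null 3. In Arl13b-null 2 the embryonic sum was 0 and the adult sum 200, so the ratio was at least 50.8 with the 3 reads that a count of 0 allows. Adult transcripts made up 97.4% of the 7 globins in wild-type 1 and between 7.30% and 9.42% in the 4 similar libraries, or 98.4% and between 8.88% and 11.2% with Hbb-b1 and Hbb-b2 added. The ratio was 1.32 times as high in wild-type 3 as in Arl13b-null 3, the highest and lowest of the 4 similar libraries. No test was made, since the ratio is a score over chosen genes.

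**Figure D2:**
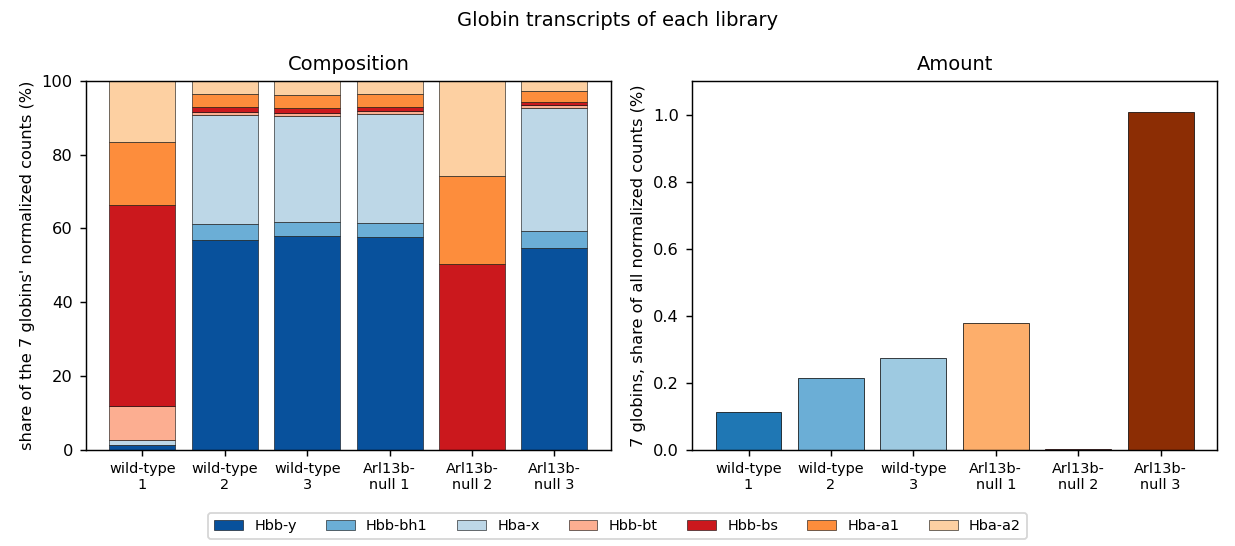
Left, share of each of the 7 globins in their summed normalized counts (percent) per library, and right, share of the 7 globins in all normalized counts of the library (percent). Adult globins (red and orange) fill 97.4% of the left bar of wild-type 1 and at most 9.42% in the 4 similar libraries, and the right bars run from 0.000554% in Arl13b-null 2 to 1.01% in Arl13b-null 3.

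Alpha and beta genes differed in how much adult transcript accompanied the embryonic one. In the 4 similar libraries, adult genes gave between 2.87% and 3.19% of beta-type counts but between 14.2% and 20.4% of alpha-type counts. With Hbb-b1 and Hbb-b2 added, the adult share of beta-type counts was between 5.56% and 6.31%, still under the alpha-type share in each of the 4. In wild-type 1, they gave 98.0% of beta-type and 96.5% of alpha-type counts. The summed level of beta-type genes per kilobase was between 1.90 and 2.11 times that of alpha-type genes in the 4 similar libraries and 1.82 times in wild-type 1, but 0.990 times in Arl13b-null 2, which held adult genes alone. With Hbb-b1 and Hbb-b2 added it was between 1.95 and 2.18 times in the 4 similar libraries, 3.60 times in wild-type 1 and 1.87 times in Arl13b-null 2.

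Over the 6 libraries, Klf1 and Gata1 were more like the embryonic globins and Alas2 more like the adult ones, a division that rests on wild-type 1. Klf1, the zinc-finger activator of beta-globin genes, stood at 12.8, 50.1 and 50.1 normalized counts in wild-type and at 66.0, 2.63 and 164 in Arl13b-null. Gata1, the master regulator of red cell and platelet precursors, stood at 8.07, 24.6 and 35.6 normalized counts in wild-type and at 40.3, 0 and 119 in Arl13b-null. Both were lower in wild-type 1 than in any of the 4 similar libraries. Against the average of wild-type 2 and 3 they were at 0.255 and 0.268 times there. The embryonic globins fell further, to between 0.00381 and 0.0193 times. Alas2, the red cell form of the first enzyme of haem synthesis, stood at 1819, 701 and 930 normalized counts in wild-type and at 1149, 15.8 and 3517 in Arl13b-null, so that wild-type 1 was second to Arl13b-null 3. Over the 6 libraries the Pearson r of variance-stabilised values with the mean of the embryonic globins was 0.95 for Klf1, 0.94 for Gata1 and 0.72 for Alas2, and with the mean of the adult globins 0.60, 0.68 and 0.98. These r describe 6 points that share library and depth, and 1 library, Arl13b-null 2, is the lowest for every gene. Within the 4 similar libraries Alas2 did not keep closer to the adult globins. From lowest to highest, the embryonic sum per Alas2 varied 1.15 times and the adult sum per Alas2 1.38 times.

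Slc4a1, which encodes the anion exchanger of the red cell membrane and was singled out after its values were seen, scaled with the embryonic globins. It stood at 641, 1819 and 2296 normalized counts in wild-type and at 3138, 6.55 and 9022 in Arl13b-null. The embryonic sum was 29.3, 29.9, 31.1 and 30.2 times Slc4a1 in wild-type 2, wild-type 3, Arl13b-null 1 and Arl13b-null 3, and 1.23 times in wild-type 1. The adult sum was between 2.38 and 3.11 times Slc4a1 in the 4 similar libraries and 46.6 times in wild-type 1, or between 2.94 and 3.78 times and 76.8 times with Hbb-b1 and Hbb-b2 added. Alas2 was between 0.366 and 0.405 times Slc4a1 in the 4 similar libraries and 2.84 times in wild-type 1. Thus the 4 similar libraries differed in the amount of these transcripts more than in their proportions, and wild-type 1 differed in proportions.

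**Figure D3:**
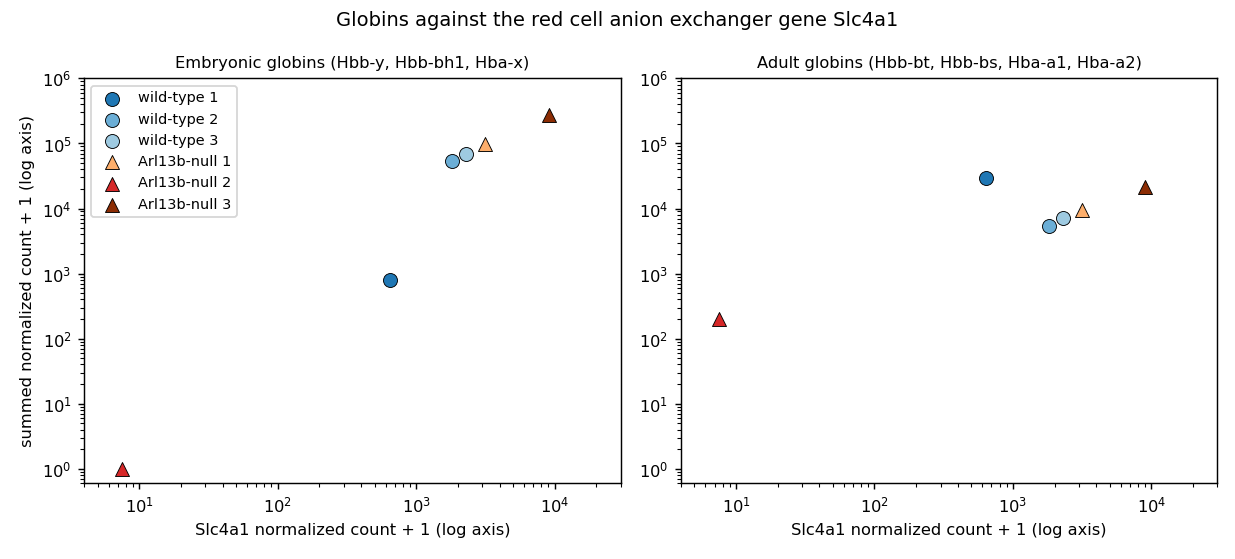
Summed normalized count plus 1 of the embryonic globins (left) and adult globins (right) against that of Slc4a1, on log axes, with 1 point per library (circles wild-type, triangles Arl13b-null). The 4 similar libraries rise together in both panels, and wild-type 1, at 641 for Slc4a1, lies lowest of the 5 libraries above 0 for embryonic and highest of all for adult globins.

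The comparison of genotypes asks whether these transcripts differ between libraries of the 2 genotype labels, and over all 6 libraries no globin or erythroid gene separated the labels. Hbb-y was at 13.11 ± 3.68 (SD, n = 3) on the variance-stabilised log2 scale in wild-type and 12.78 ± 6.66 (SD, n = 3) in Arl13b-null, a difference of −0.33 ± 3.66 (SE; limma adjusted p = 0.996). Hbb-bs differed by −1.48 ± 1.57 (SE; limma adjusted p = 0.990) and Alas2 by −0.76 ± 1.47 (limma adjusted p = 0.990). Median differences were −0.22 for the 3 embryonic and −1.17 for the 4 adult globins, against 0.0026 over all genes tested. Of the 10 genes, 0 passed a limma adjusted p of 0.05, where 0 of 14249 genes (0%) did, and 0 of the 10 had an unadjusted p under 0.05, where 163 genes (1.14%) did, 0.112% with higher values in Arl13b-null. For 0 of the 10 genes did the groups of 3 separate, where Arl13b-null was wholly above wild-type for 4.67% of genes and wholly below for 3.59%. Signs turned with the libraries used: without Arl13b-null 2 the median was 3.33 for embryonic and 0.68 for adult globins, and without Arl13b-null 3 it was −2.40 and −2.35.

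Among the 4 similar libraries, all 10 genes were higher in both Arl13b-null libraries than in both wild-type libraries, without passing the test over all genes. Hbb-y differed by 1.38 ± 0.44 (SE, n = 2 per group; limma adjusted p = 0.263), Hba-x by 1.51 ± 0.51 (adjusted p = 0.281) and Hbb-bh1 by 1.42 ± 0.53 (adjusted p = 0.319). The adult genes differed by between 1.12 for Hbb-bs and 1.33 for Hbb-bt (adjusted p = 0.275 and 0.282). Klf1 and Gata1 differed by 0.64 each (adjusted p = 0.372 and 0.404) and Alas2 by 1.25 (adjusted p = 0.337). In limma 0 of the 10 passed, against 36 of 14249 genes (0.253%), of which 0.0702% of all genes were higher and 0.182% lower in Arl13b-null. An unadjusted p under 0.05 was found for 8 of the 10, all but Klf1 and Gata1, and 8.08% of all genes had such a p with higher values in Arl13b-null. Both Arl13b-null libraries lay above both wild-type libraries for 29.3% of all genes, and the 10 genes share their source, so they are not 10 separate observations.

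**Figure D4:**
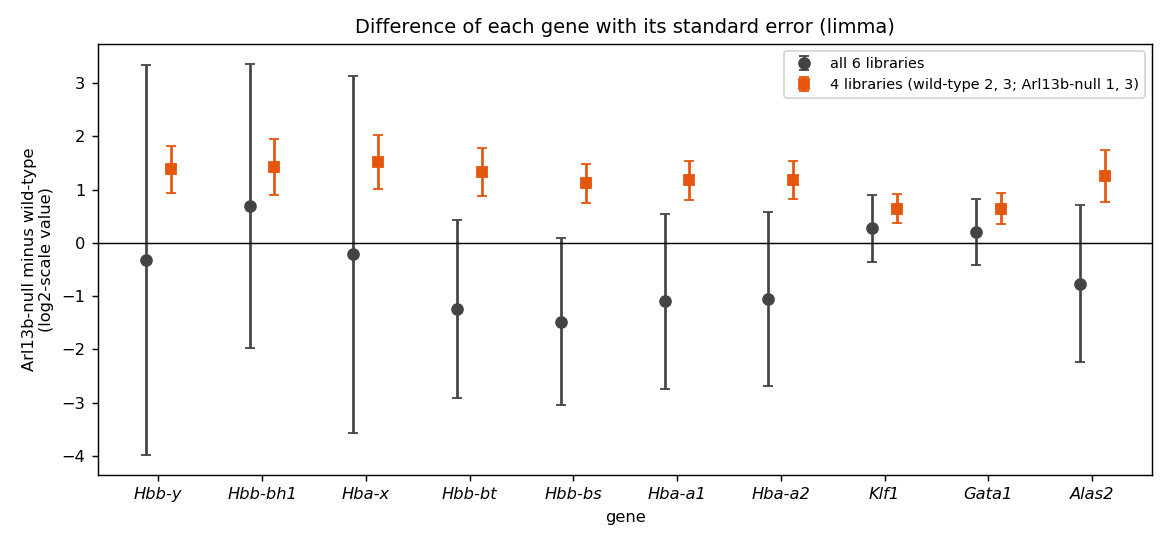
Arl13b-null minus wild-type difference of each gene on the variance-stabilised log2 scale, with standard errors from limma, over all 6 libraries (circles) and over the 4 similar libraries (squares). Each bar reaches 0 in the comparison of all 6 libraries, and none does in that of the 4 similar libraries.

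Most of that difference came from Arl13b-null 3. Each of the 10 genes was ordered wild-type 2, wild-type 3, Arl13b-null 1, Arl13b-null 3 from low to high, as were 9.78% of all genes tested, although Klf1 was at 50.1 in both wild-type libraries. Arl13b-null 3 was the highest of the 4 for all 10, as for 33.4% of genes, and the highest of all 6 for 8 of the 10, all but Hbb-bt and Hbb-bs, as for 20.5%. Against the average of wild-type 2 and wild-type 3, the 10 genes were between 1.32 and 1.61 times in Arl13b-null 1 and between 3.26 and 5.01 times in Arl13b-null 3, where 1.22% of all genes tested were at 2 times or more. Without Arl13b-null 1, which sets the single library Arl13b-null 3 against wild-type 2 and 3 and takes the spread from the latter, all 10 passed in limma (adjusted p between 0.000588 for Hbb-bh1 and 0.0191 for Gata1), against 2.94% of genes called higher. Without Arl13b-null 3, 0 of the 10 passed (adjusted p between 0.0812 and 0.731), against 0.161% of genes called higher, and the median difference was 0.69 for embryonic and 0.61 for adult globins. Sex-linked transcripts separate the same 4 libraries by group: Xist was at 26.5 and 213 in wild-type 2 and 3 and at 16292 and 19017 in Arl13b-null 1 and 3, and Gata1 and Alas2 lie on the X chromosome. Sex and genotype cannot be told apart in these 4 libraries.

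Other genes of red cells moved with the globins where they are particular to that cell type. Of the membrane and skeleton list, 19 of 20 genes were tested, 18 of the 19 differed by more than 0 among the 4 similar libraries, as did 58.8% of all genes tested. None passed by adjusted limma p. An unadjusted p under 0.05 was found for 8, all higher in Arl13b-null, as for 8.08% of all genes. The median difference was 0.64 against 0.023 over all genes tested. Epb42, the red cell membrane protein 4.2, stood at 26.3, 107 and 147 normalized counts in wild-type and at 199, 0 and 559 in Arl13b-null. Kel, a blood group antigen, stood at 22.0, 132 and 184 normalized counts in wild-type and at 211, 0 and 559.7 in Arl13b-null. Epb42 and Kel, named after their values were seen, kept the order of the embryonic globins, with wild-type 1 under the 4 similar libraries. The 4 genes with the highest level on that list, Cd24a, Epb41, Add2 and Dmtn, are also made by neurons, and 3 of them were highest in Arl13b-null 2: Dmtn, an actin-binding protein, had 16221 there against between 605 and 2387 in the other 5.

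Haem synthesis and iron uptake showed smaller differences. All 16 genes of the list were tested, and 14 differed by more than 0 among the 4 similar libraries, as did 58.8% of all genes tested. In limma 0 passed, and for 5 the unadjusted p was under 0.05, all higher in Arl13b-null, as for 8.08% of all genes. The median difference was 0.17. Slc25a37, the mitochondrial iron carrier mitoferrin named after its values were seen, followed the embryonic globins and stood at 564, 1092 and 1181 normalized counts in wild-type and at 1530, 103 and 3829 in Arl13b-null. Fech, which inserts iron into the porphyrin ring, stood at 1495, 1068 and 1160 normalized counts in wild-type and at 1254, 1725 and 2397 in Arl13b-null. Tfrc, the transferrin receptor, stood at 1329, 3221 and 3452 normalized counts in wild-type and at 3715, 1337 and 4880 in Arl13b-null. Tfrc was lowest in the libraries with few embryonic globins, whereas Fech was not. Of 13 erythroid regulators tested, 11 differed by more than 0 (median 0.28), and of 11 red cell enzymes tested, 11 did (median 0.44), against 58.8% of all genes. In limma 0 passed in either list, and an unadjusted p under 0.05 was found for 5 regulators, 1 of them lower in Arl13b-null, and for 5 enzymes, against 14.4% of all genes in either direction. Tal1, a partner of Gata1 that endothelial and neural cells also use, stood at 996, 1588 and 1478 normalized counts in wild-type and at 2064, 123 and 3015 in Arl13b-null. Bpgm, which makes the red cell metabolite that lowers the oxygen affinity of haemoglobin, stood at 2333, 2424 and 2549 normalized counts in wild-type and at 2871, 2238 and 3905 in Arl13b-null.

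Regulators known from globin switching, the change from embryonic or fetal to adult globin, did not follow 1 pattern. Lin28b and Igf2bp1, RNA-binding proteins of early development that favour fetal globin in human red cells, were low where embryonic globins were low. Igf2bp1 stood at 1174, 7122 and 7595 normalized counts in wild-type and at 8536, 103 and 10442 in Arl13b-null. Lin28b stood at 172, 532 and 589 normalized counts in wild-type and at 802, 34.03 and 1113 in Arl13b-null. Bcl11a, a repressor of embryonic and fetal globin that neurons also make, ran the other way, and stood at 7771, 4833 and 5281 normalized counts in wild-type and at 4096, 16451 and 3391 in Arl13b-null. Sox6 and Myb, also on the list, were lowest in Arl13b-null 2, where Bcl11a was highest. Among the 4 similar libraries Sox6 ran as Bcl11a did, lower in both Arl13b-null libraries. Sox6 differed there by −0.62 and Bcl11a by −0.43. Sox6 stood at 1862, 2584 and 3199 normalized counts in wild-type and at 2072, 115 and 1655 in Arl13b-null. Myb stood at 153, 341 and 394 in wild-type and at 326, 11.9 and 369 in Arl13b-null. Of the 17 genes on the list, 13 were lowest in Arl13b-null 2, as were 42.7% of all genes tested. The nuclear receptor genes Nr2c1 and Nr2c2, whose products bind sites of the GGTCA type, had between 187 and 696 and between 3504 and 4719, with Nr2c1 lowest in Arl13b-null 2. Zbtb7a, another repressor of fetal globin, was highest of the 6 libraries in wild-type 1, at 1335. It was at 902 in Arl13b-null 2 and between 853 and 966 in the 4 similar libraries. Igf2bp1, Lin28b, Sox6, Myb, Zbtb7a and the 2 receptors were named after their values were seen. Of the 17 genes on the list, 10 differed by more than 0 among the 4 similar libraries, the same share as the 58.8% of all genes, and 0 passed in limma (median 0.064). At an unadjusted p under 0.05, 6 were higher and 2, Bcl11a and Sox6, were lower. Such a p was found for 8.08% of all genes with higher values and for 14.4% in either direction. Over all 6 libraries 0 passed and 0 had such a p (median −0.27). Most of these genes are made by neural cells, and no value here assigns them to red cells.

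Markers of other cells moved with the same libraries. The summed normalized count of 15 cell cycle genes was between 75883 and 90573 in the 4 similar libraries, against 18565 for wild-type 1 and 702 for Arl13b-null 2. That of 15 maturing neuron genes was between 72190 and 78064 in the 4 similar libraries, against 198219 for wild-type 1 and 569532 for Arl13b-null 2. The sum of 14 surface ectoderm genes was 59948 in wild-type 1, between 609 and 4963 in the 4 similar libraries and 1504 in Arl13b-null 2, and 4 of the 14 were at 0 in the last. Within the 4 similar libraries it was 4963 in wild-type 2, 2427 in wild-type 3, 1196 in Arl13b-null 1 and lowest in Arl13b-null 3 at 609, which reverses the order of the globins. Both Arl13b-null libraries were under both wild-type libraries for 14 of the 14 genes, as for 18.1% of all genes, with a median difference of −1.84. In limma 0 passed and 11 had an unadjusted p under 0.05, all lower in Arl13b-null, against 14.4% of all genes in either direction. The part of these cell cycle, neuron and ectoderm transcripts in the globin values was not tested. The 16 endothelial genes summed to between 9681 and 13248 in 5 libraries, wild-type 1 included at 12574, and to 2017 in Arl13b-null 2. The 16 white cell genes summed to between 2609 and 4528 in all 6, of which Coro1a, also made by neurons, gave 3665 of 3895 in Arl13b-null 2, where Csf1r was at 31.4 and 4 of the 16 at 0. Among the 4 similar libraries, 12 of 15 endothelial genes tested (median 0.26) and 11 of 12 white cell genes (median 0.23) differed by more than 0. Of all genes 58.8% did, so a shift upward was not particular to the red cell lists. In limma 0 passed. An unadjusted p under 0.05 was found for 6 endothelial and 4 white cell genes, all higher in Arl13b-null, as for 8.08% of all genes. The 11 platelet genes summed to between 1156 and 1571 in the 4 similar libraries, to 2355 in wild-type 1 and to 6993 in Arl13b-null 2. Gp1bb alone gave 2055 of the sum in wild-type 1 and 6860 in Arl13b-null 2, where 6 of the 11, Pf4, Ppbp and Clec1b among them, were at 0. Pf4, a platelet chemokine, was at 101 in wild-type 1 and between 72.1 and 118 in the 4 similar libraries. Ppbp, another platelet chemokine, was at 13.5 in wild-type 1 and between 32.9 and 84.0 in the 4 similar libraries, and Clec1b, a platelet receptor, at 14.7 and between 39.3 and 73.5. The endothelial gene Plvap was at 143 in wild-type 1 and between 508 and 725 in the 4 similar libraries. In Arl13b-null 2 Plvap alone gave 761 of the endothelial sum of 2017, while Kdr was at 77.2 and Cdh5 at 52.4. Wild-type 1 thus lay under the 4 similar libraries for Ppbp, Clec1b and Plvap but not for Pf4 or the endothelial sum, and Ppbp, Clec1b and Plvap were named after their values were seen.

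Genes whose pattern over the 6 libraries was most like that of the embryonic globins were Cntfr, Gfm2, Safb, Igdcc3, Sall4 and Rufy4, with a Pearson r of 0.999 each to the mean of the 3. Sall4, a transcription factor of early embryonic cells, stood at 28.2, 403 and 397 normalized counts in wild-type and at 456, 0 and 736 in Arl13b-null. With so few libraries such likeness is common: 1843 genes had an r over 0.95. For the adult globins, the closest were Hbb-b2 (r = 0.998), Ptpn9 (0.998), Ppm1k (0.997), Nqo1 (0.996), Zbtb41 (0.995) and Cp (0.995), and 286 genes had an r over 0.95. Cp, the copper-carrying ferroxidase ceruloplasmin, stood at 379, 153 and 143 normalized counts in wild-type and at 222, 8.09 and 304 in Arl13b-null.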

How the data were processed

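The deposited table holds, for 6 libraries, normalized counts that the authors variance-stabilised to a log2-like scale, as its name states. Tools listed in the submitters' processing notes are STAR 2.6.0, CASAVA, DESeq 1.16.1, Salmon 0.9.1 and DESeq2, and the build listed is mm9, without roles; annotation and filters were not stated. The shared lowest value, 5.13, was taken as a count of 0, which fixes the inverse transformation. Low inverted values lay at steps taken as 1 read. Of values below 30 reads, 68.1% to 74.8% per library came within 0.05 of whole reads, so no count test was run. The floor is 3 reads and covers counting error only.

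Genes averaging at least 1 above the lowest value (14249) were tested two-sided in limma 3.58.1 (R 4.3.3) with a variance trend, p-values being adjusted over all genes by the Benjamini-Hochberg method. On data simulated with independent noise for each gene, log2 changes of 2 were recovered for 32.8% of changed genes with all 6 libraries and 92.5% with 4. False calls were 4 and 5. Variation shared between genes was not simulated and the changed genes were random, so these shares do not give the power for the members. The members, 17 lists (211 genes) and the 4-library comparison were chosen with earlier results of these data known. Named genes are the members, genes among the highest of a list by mean, the 6 most alike to each globin class, and those said to be named after their values were seen. Alternatives were other filters, scalings, variance models, array weights, a replicate block, inverted counts with a pseudocount of 1 or 8, and left-out libraries. Ratios and shares with Hbb-b1 and Hbb-b2, and left-out libraries within the 4, were added after the values were seen. Promoters are from RefSeq GRCm38.p6 and transcripts from GENCODE M21, not the build in the notes. Some genes, and results that rest on them, are not reported here.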

Additional observations from a re-analysis of the deposited data

How the results depend on the processing

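Of 168 alternative values for the 10 members over all 6 libraries, 134 kept their direction and side of the threshold, 32 turned in sign, each of the 10 genes at least once, and 2 passed where the main value had not. Leaving out each library gave between −2.58 and 3.50 for Hbb-y, −1.15 and 3.27 for Hbb-bh1, −2.40 and 3.33 for Hba-x, −2.48 and 0.55 for Hbb-bt, −2.37 and −0.081 for Hbb-bs, −2.33 and 0.81 for Hba-a1, −2.27 and 0.83 for Hba-a2, −0.25 and 0.90 for Klf1, −0.35 and 0.84 for Gata1, and −1.98 and 0.88 for Alas2. The range was −2.40 to 3.33 for the embryonic median, −2.35 to 0.68 for the adult median and 0 to 4 for the count of genes past the threshold. With array weights, whose estimation stopped before its tolerance, differences were 2.06 for Hbb-y, 2.30 for Hba-x, 2.03 for Hbb-bt, 1.69 for Hbb-bs, 1.73 for Hba-a1, 1.73 for Hba-a2 and 2.04 for Alas2, the adult median was 1.73, 214 genes passed, and Klf1 (1.04, limma adjusted p = 0.0411) and Gata1 (1.12, limma adjusted p = 0.0457) were among them. With the 4 similar libraries these were 1.38, 1.51, 1.33, 1.12, 1.17, 1.18 and 1.25, the adult median was 1.18 and 36 genes passed. With a pseudocount of 1, Hbb-bh1 was at −0.20 and Gata1 at −0.26. Without a filter 3 genes passed. The cause of these changes was not tested. The replicate block left every difference as it was, with 0 genes past the threshold (limma adjusted p = 0.9997 for each member). Deviations of same-numbered libraries from their group means had r of −0.71, −0.71 and 0.62. Wild-type 1 and Arl13b-null 2, which stood apart, weigh heavily in these r, so they cannot decide whether the numbers pair the samples. Within the 4 similar libraries, leaving out each gave medians from 0.69 to 2.29 (embryonic) and 0.61 to 1.72 (adult).

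The log2 adult to embryonic ratio kept its sign in all 6 libraries. It was 5.25, −3.32, −3.27, −3.34 and −3.67 in wild-type 1, 2 and 3 and Arl13b-null 1 and 3. For beta globins only it was 5.58, −4.95, −4.93, −4.998 and −5.08, for alpha globins only 4.76, −2.06, −1.96, −2.06 and −2.59, and with Hbb-b1 and Hbb-b2 added 5.97, −3.01, −2.98, −3.06 and −3.36. In Arl13b-null 2 it was at least 4.66 to 7.25 over these settings and a floor of 1 read. By Spearman rho, 3 of the 6 genes most alike to the embryonic globins and 5 of the 6 for the adult globins stayed at a rho of 1. Depth limits Arl13b-null 2, where 1 read is worth 1.31 normalized counts.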

Other observations

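Ngb and Cygb, globins outside red cells, took another pattern. Ngb, neuroglobin of nerve cells, stood at 46.9, 3.29 and 3.91 normalized counts in wild-type and at 3.63, 194 and 4.90 in Arl13b-null. Cygb, cytoglobin, stood at 650.5, 162 and 138 normalized counts in wild-type and at 141, 1087 and 149 in Arl13b-null. Both were highest in Arl13b-null 2, the library without embryonic globins, and next highest in wild-type 1, and neither passed between genotypes (limma adjusted p = 0.990 for each). Hbq1b, a theta-type globin of the alpha cluster, stood at 3.16, 15.6 and 13.1 normalized counts in wild-type and at 22.9, 10.6 and 46.4 in Arl13b-null. It did not share the pattern of Ngb and Cygb, being highest in Arl13b-null 3 and lowest in wild-type 1, and was under the filter on low values. Mb (myoglobin), Hbq1a and Hbb-bh2 were between 0 and 4.79 in all 6 libraries.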
